A study of Mus musculus with 8 samples.

Results

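The genes described here are 10 transcription regulators of blood progenitors, chosen by name from a list: *Runx1*, *Runx2*, *Runx3*, *Cbfb*, *Myb*, *Gfi1*, *Ikzf1*, *Ikzf2*, *Gata2* and *Lmo2*. All 10 were found among the 12823 rows of the count table, and all 10 were among the 12494 genes that passed the filter on low counts. RNA-seq was performed on mouse acute myeloid leukemia (AML) cells driven by MLL-AF9, a fusion of the genes for a histone methyltransferase and a transcription elongation factor. In both groups the fusion and GFP were expressed from a retrovirus in bone marrow progenitors, the hosts were C57BL/6 mice, and GFP+ cells were sorted from bone marrow before RNA extraction. The 4 new AML libraries came from leukemia newly generated in sublethally irradiated recipients. For the 4 aggressive AML libraries, the labels describe the cells as derived from that leukemia by 5 serial transplantations, which the study's methods place in non-irradiated recipients. The labels give no age of the hosts, and the study's methods give a single range of young adult ages for all its mice. A figure legend of the study gives male sex for the mice of these libraries.

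RUNX proteins bind DNA as one subunit of core binding factor, and CBFβ, the product of *Cbfb*, is the shared partner that strengthens their binding. MYB keeps progenitors dividing, GFI1 represses monocyte genes and so favours granulocytes, and the Ikaros family (*Ikzf1*, *Ikzf2*) works largely through nucleosome remodelling complexes in lymphoid and progenitor cells. GATA2 and LMO2 act in stem cells and early progenitors, where LMO2 bridges DNA-binding proteins without binding DNA itself. Several of these genes are recurrently altered in human leukemia, and MLL-AF9 cells are known to depend on MYB.

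Between aggressive and new AML, *Runx1* fell to about 0.506 of its level, *Runx2* rose 1.78-fold, and *Ikzf2*, which encodes Helios, fell to near 1 CPM (read counts scaled to the total of the library). These 3 of the 10 genes passed the edgeR test at an adjusted p under 0.05, with 1 higher and 2 lower. Over all tested genes 18.4% passed, 8.15% as higher and 10.2% as lower, and the members' count is read against that background. The other 7 had adjusted p-values from 0.0597 to 0.889. For 5 members the groups had no overlap (*Runx1*, *Runx2*, *Ikzf2*, *Cbfb* and *Lmo2*), which was so for 21.8% of all tested genes. The median log2 fold change was -0.03 over the members and 0.00 over all tested genes.

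The libraries held 7805544 to 9697777 counts, and 1 count equalled 0.103 to 0.128 CPM. CPM values carry a TMM scaling factor of 0.986 to 1.01. All 12 identity genes of this leukemia (among them *Ptprc*, *Itgam*, *Kit*, *Mpo* and *Hoxa9*) were expressed, with a summed level of 6164 to 6693 CPM in new and 5994 to 6943 CPM in aggressive AML, and 3 of them were higher and 3 lower. The groups also differed in Y-linked RNA: 4 Y-linked genes (*Ddx3y*, *Eif2s3y*, *Kdm5d*, *Uty*) summed to 2315 to 2574 counts in each new AML library and to 0 counts in each aggressive AML library, which allows up to 3 counts per library. *Xist* had 18 to 46 counts in new and 2 to 6 in aggressive AML. A different origin of the groups and loss of the Y chromosome from the aggressive cells cannot be told apart with these data, and the part of this difference in the results was not tested. Aggressive AML replicate 3 stood apart for several members, and values without it are given beside the results it moves. The labels give no batch or date, and batch and group therefore cannot be told apart. The labels call the replicates biological but tie none to a mouse, and p-values measure the spread between these samples. Whether the libraries of a group came from separately generated leukemias is not stated, and p-values are not read beyond these samples. In bulk RNA, fewer cells of a type and less RNA per cell cannot be told apart.

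The promoters of the *Runx* genes are shown because the paralogs moved apart and because RUNX proteins are known to act on their own genes. Apart from the stretch of 30 bases, which lies within annotated *Runx2* transcript, the sequences are the upstream parts outside annotated exons, from RefSeq on GRCm38.p6, 5′ to 3′ on the strand of the gene. Capitals mark RUNX matches (TGTGGT or TGCGGT) and MYB matches (AACTG or AACGG) on either strand. The lines give the distal and the proximal promoter of *Runx1* (chr16:92826150-92826324 and chr16:92697330-92697579, minus strand), that of *Runx2* (chr17:44814798-44814877, minus strand) with a stretch of 30 bases around its RUNX match (chr17:44814690-44814719), and the distal promoter of *Runx3* (chr4:135120448-135120644, plus strand).
Runx1 distal: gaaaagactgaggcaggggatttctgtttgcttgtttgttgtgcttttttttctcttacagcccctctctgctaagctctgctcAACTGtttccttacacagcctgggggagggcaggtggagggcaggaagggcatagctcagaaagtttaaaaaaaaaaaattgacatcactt
Runx1 proximal: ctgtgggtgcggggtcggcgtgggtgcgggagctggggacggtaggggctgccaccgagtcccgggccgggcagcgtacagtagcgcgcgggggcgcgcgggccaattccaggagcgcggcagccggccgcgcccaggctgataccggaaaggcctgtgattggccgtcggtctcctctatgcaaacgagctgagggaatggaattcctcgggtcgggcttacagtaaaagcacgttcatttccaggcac
Runx2: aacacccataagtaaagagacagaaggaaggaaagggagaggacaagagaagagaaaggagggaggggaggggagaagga
Runx2 RUNX match: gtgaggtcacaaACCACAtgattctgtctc
Runx3 distal: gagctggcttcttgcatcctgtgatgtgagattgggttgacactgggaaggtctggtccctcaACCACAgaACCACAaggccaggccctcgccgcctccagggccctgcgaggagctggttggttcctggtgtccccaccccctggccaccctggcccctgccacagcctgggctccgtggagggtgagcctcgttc

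In the 250 bases before the start site, *Runx2* held 1 RUNX match, at -80 to -75 from the start site, and the distal promoter of *Runx3* held 2, at -134 to -129 and -126 to -121. Neither *Runx1* promoter held one, nor did the other *Runx3* promoter, which is not printed. The distal *Runx1* promoter held 2 MYB matches, at -166 to -162 and -25 to -21, of which the first is in the printed part. Of 32851 RefSeq promoters, 18.6% held a RUNX match and 48.6% a MYB match, so neither is rare. Matches of the other motifs searched in these promoters were 1 Ikaros match (TGGGAA) in distal *Runx3*, at -154 to -149. Over all promoters this motif was found in 21.6%, the GATA motif (AGATAA or TGATAA) in 16.6%, GFI1 (AAATCA) in 12.4% and E-box (CAGCTG) in 13.0%. No match overlapped a match of another motif in the *Runx* promoters. The table held promoters for 8 of the 10 members, 13 in all, and not for *Ikzf2* or *Lmo2*. The data sum the transcripts of both promoters of a gene.

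*Runx1* (chr16:92601466-92826149, minus strand, GRCm38), the core binding factor gene of definitive blood formation, was measured at 218.0, 205.3, 175.7 and 211.0 CPM in new AML replicates 1 to 4. In aggressive AML it was 120.0, 100.7, 87.2 and 102.1 CPM. Each aggressive library was below each new library. The means were 202 ± 18.6 and 102 ± 13.5 CPM (SD, n = 4). The log2 fold change was -0.98 (SE 0.10, 95% interval -1.19 to -0.77, edgeR adjusted p = 9.17e-06). The level in new AML was thus 1.98 times that in aggressive AML.

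*Runx2* (chr17:44495987-44814797, minus strand), best known as the regulator of bone formation and also expressed in early myeloid and plasmacytoid cells, was at 101.5, 107.4, 84.9 and 98.7 CPM in new AML. In aggressive AML it was at 149.0, 143.9, 248.4 and 155.9 CPM. The groups did not overlap, and aggressive replicate 3 was far above the others of its group. The means were 98.1 ± 9.53 and 174 ± 49.6 CPM, a log2 fold change of 0.83 (SE 0.15, 95% interval 0.52 to 1.14, adjusted p = 0.00118) and 1.78-fold. Without aggressive replicate 3 the log2 fold change was 0.61 (adjusted p = 0.000167).

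*Runx3* (chr4:135120652-135177990, plus strand), which acts in T cells, NK cells and dendritic cells as well as in progenitors, did not pass the test. It was at 167.9, 155.0, 127.3 and 127.8 CPM in new and 132.7, 162.9, 155.1 and 147.6 CPM in aggressive AML, and the groups overlapped. The log2 fold change was 0.05 with a 95% interval of -0.16 to 0.26 (adjusted p = 0.766).

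*Cbfb* (chr8:105170674-105217989, plus strand) was at 214.6, 206.9, 207.1 and 215.3 CPM in new and 179.5, 191.5, 153.2 and 194.8 CPM in aggressive AML. All aggressive libraries were below all new ones, but the difference was small and its adjusted p missed the threshold. The log2 fold change was -0.23 (SE 0.08, 95% interval -0.40 to -0.06, adjusted p = 0.0597). It passed with DESeq2 (-0.23, adjusted p = 0.0438) and without aggressive replicate 4 (-0.27, 0.0441), and was -0.16 (0.131) without aggressive replicate 3.

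**Figure D1:**
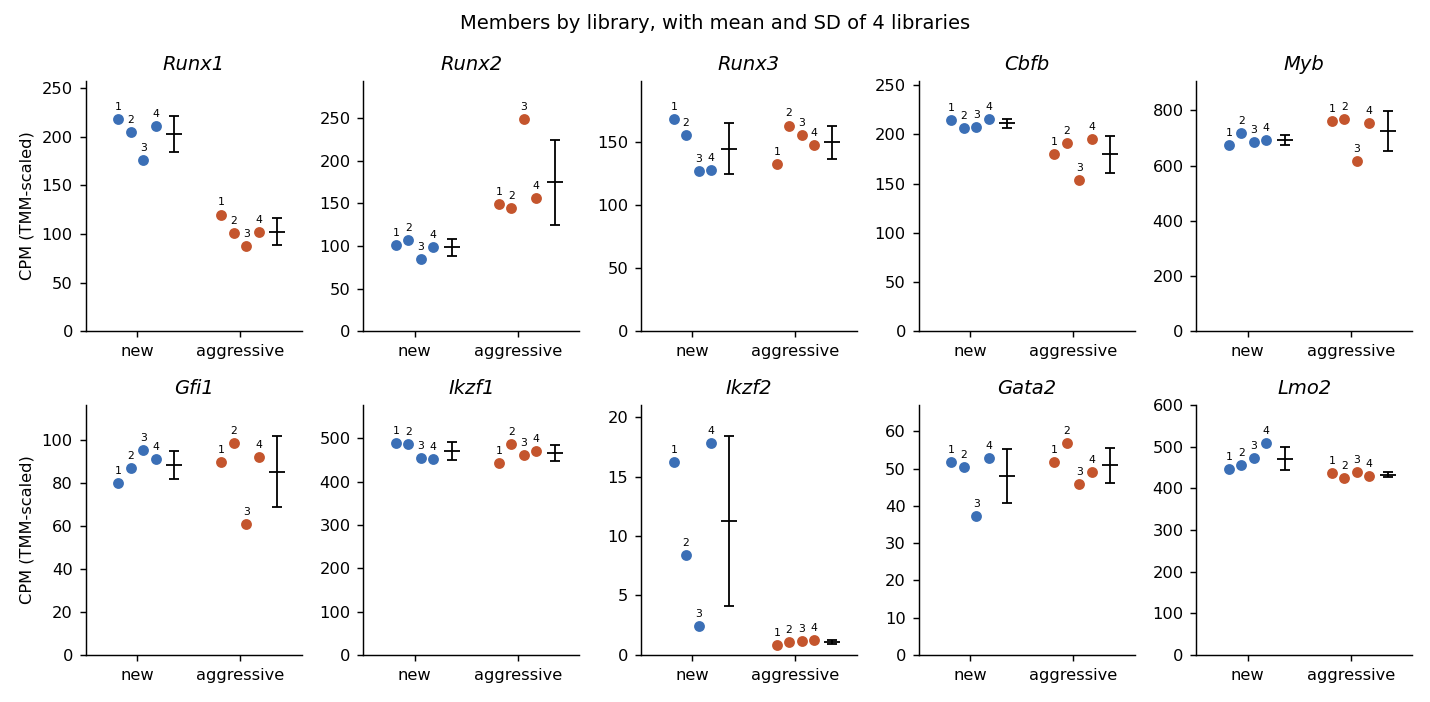
TMM-scaled CPM of the 10 members (vertical axis, starting at 0 in each panel) in 4 new AML (blue) and 4 aggressive AML (red) libraries, numbered by replicate, with the mean and SD of each group as a black mark. *Runx1* was at 87.2 to 120.0 CPM in aggressive and 175.7 to 218.0 CPM in new AML, while *Runx3*, *Myb*, *Gfi1*, *Ikzf1* and *Gata2* overlapped between the groups.

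The composition of the *Runx* RNA was compared on a scale that corrects for gene length, CPM per kb of exon. In new AML *Runx1* made up 29.7 ± 1.81% of the summed *Runx* level and *Runx2* 19.6 ± 1.06% (SD, n = 4). In aggressive AML the shares were 14.9 ± 3.18% and 33.5 ± 6.07%, and neither overlapped between groups. The order of the pair was therefore reversed in every library: the ratio of *Runx1* to *Runx2* was 1.41 to 1.58 in new and 0.258 to 0.592 in aggressive AML. *Runx3* was the largest part, at 50.7 ± 2.57% and 51.6 ± 4.38%. With the longest transcript as the length, *Runx3* (42.7%) and *Runx1* (39.8%) were closer in new AML, and in new replicate 4 *Runx1* was the larger (42.8% against 39.1%). The summed *Runx* level overlapped between groups, at 49.6 to 63.2 and 53.4 to 66.4 CPM per kb, as did the ratio of *Cbfb* to it (0.976 to 1.20 and 0.663 to 1.01). The direction of the small difference in the summed level was not stable: it was 1.32 CPM per kb, aggressive minus new, with exon length, -3.96 with the length of the longest transcript, -1.42 without aggressive replicate 3 and -1.07 without new replicate 3. The shares carry no test.

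**Figure D2:**
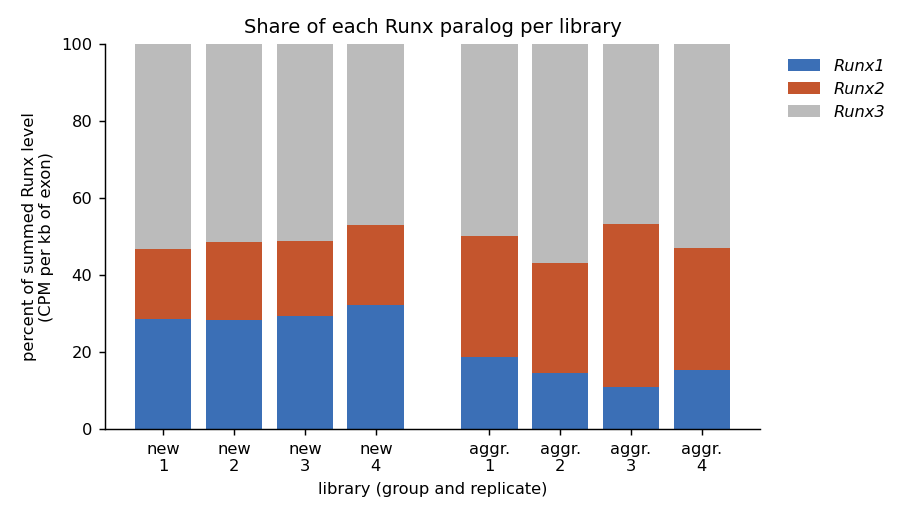
Percent of the summed *Runx* level (CPM per kb of exon, vertical axis) that each paralog held in each of the 8 libraries (horizontal axis, group and replicate). The *Runx1* part was 28.4% to 32.3% in new and 10.9% to 18.7% in aggressive AML, and the *Runx2* part 18.2% to 20.6% and 28.5% to 42.4%.

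*Ikzf2* (chr1:69531214-69687245, minus strand), the gene of Helios, a factor of regulatory T cells and of stem and leukemia cells, was the member with the largest change and the lowest level. It had 158, 71, 22 and 160 counts in new AML, or 16.2, 8.44, 2.45 and 17.8 CPM. In aggressive AML it had 7, 9, 9 and 11 counts, or 0.843, 1.06, 1.17 and 1.25 CPM. All new libraries were above all aggressive ones, but relative to their mean they differed among themselves more than for any other member, with replicate 3 the lowest. The means were 11.2 ± 7.15 and 1.08 ± 0.176 CPM, a log2 fold change of -3.36 (SE 0.51, 95% interval -4.44 to -2.28, adjusted p = 0.000314) or 10.3-fold. Of the 12494 tested genes it ranked 43 by the size of its change. Without new replicate 3 the log2 fold change was -3.70 (adjusted p = 3.06e-06), and on the log2(CPM + 1) scale of limma, which compresses low values, it was -2.29.

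Lymphoid markers were read beside *Ikzf2*. Of 8 T cell markers 3 were tested (*Cd5*, *Lck*, *Bcl11b*), with a summed level of 9.25 to 12.7 CPM in new and 12.6 to 25.2 CPM in aggressive AML, and *Cd3d*, *Cd3e*, *Cd3g*, *Cd2* and *Trac* had no row in the table. *Cd5* (0.91, adjusted p = 0.0370, named after its values were seen) and *Bcl11b* (1.20, 0.0427) were higher, and the call of *Bcl11b* was lost under 11 of 16 alternatives. Of 7 B cell markers 2 were tested (*Cd79b*, *Cd22*), summed to 39.1 to 42.2 and 29.8 to 33.1 CPM. *Cd22*, a surface receptor of B cells, had 29 to 40 counts per new and 0 to 2 per aggressive AML library, at least 10.6-fold lower against a floor of 3 counts in each aggressive library. *Pax5* and *Ebf1* had no row, and 1 of 6 NK cell markers (*Nkg7*) did, at 11.1 to 22.2 and 19.95 to 29.9 CPM (higher, adjusted p = 0.0225). That call was lost without new replicates 1 or 2 or aggressive replicates 1 or 2 (0.0502 to 0.0782). The part of B lineage RNA in the *Ikzf2* result was not tested.

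The related *Ikzf1* (chr11:11685003-11772926, plus strand), which encodes Ikaros, was at 489.1, 487.7, 453.7 and 451.7 CPM in new and 443.5, 486.8, 460.5 and 470.3 CPM in aggressive AML. The groups overlapped, and the log2 fold change was -0.02 with a 95% interval of -0.16 to 0.13 (adjusted p = 0.889). *Ikzf2* was 1.17% of the summed length-scaled level of both genes in new and 0.115% in aggressive AML, so Ikaros RNA was in large excess in either group.

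**Figure D3:**
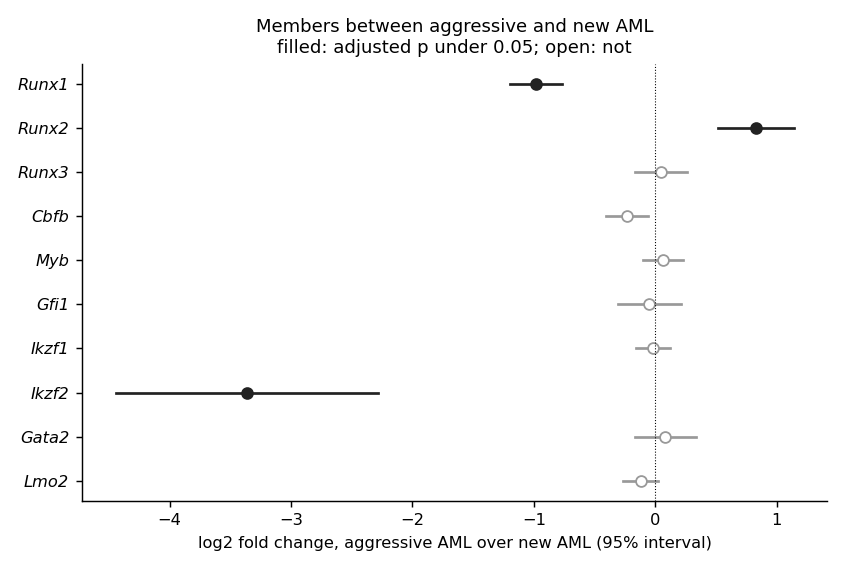
Log2 fold change of aggressive over new AML (horizontal axis) with its 95% interval for the 10 members, from the edgeR fit on 4 libraries per group; filled points had an adjusted p under 0.05. *Ikzf2* (-3.36), *Runx1* (-0.98) and *Runx2* (0.83) are filled, and the interval of *Cbfb* (-0.40 to -0.06) lies below 0 although its adjusted p was 0.0597.

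*Myb* (chr10:21124935-21160984, minus strand) was at 673.6, 716.3, 683.9 and 693.2 CPM in new and 761.9, 767.8, 616.5 and 753.2 CPM in aggressive AML. Aggressive replicate 3 was below every new library, and the others of its group were above them all. The log2 fold change was 0.07 (95% interval -0.10 to 0.23, adjusted p = 0.585), and 0.14 (adjusted p = 0.165) without aggressive replicate 3. *Gfi1* (chr5:107716657-107726036, minus strand) was also lowest in aggressive replicate 3, at 79.95, 87.0, 95.02 and 91.1 CPM in new and 89.5, 98.5, 60.9 and 91.8 CPM in aggressive AML. Its log2 fold change was -0.05 (95% interval -0.31 to 0.21, adjusted p = 0.812) and turned to 0.08 (adjusted p = 0.543) without that library.

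*Gata2* (chr6:88193891-88207032, plus strand) was at 51.7, 50.4, 37.2 and 52.7 CPM in new and 51.8, 56.9, 45.7 and 49.0 CPM in aggressive AML. The groups overlapped, with a log2 fold change of 0.08 (95% interval -0.17 to 0.33, adjusted p = 0.664) that turned to -0.02 without new replicate 3. *Lmo2* (chr2:103957986-103981878, plus strand) was at 446.1, 454.7, 472.1 and 508.8 CPM in new and 437.6, 425.5, 438.5 and 430.0 CPM in aggressive AML. These values did not overlap, but the difference was small, with a log2 fold change of -0.12 (95% interval -0.26 to 0.02, adjusted p = 0.230).

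Per kb of exon, *Lmo2* was the most abundant member in both groups, at 217 ± 12.8 CPM per kb in new and 199.9 ± 2.89 in aggressive AML. It was followed in new AML by *Ikzf1* (81.5), *Myb* (77.4), *Cbfb* (60.6), *Runx3* (28.9), *Gfi1* (27.7), *Runx1* (16.8), *Runx2* (11.1), *Gata2* (8.90) and *Ikzf2* (0.967). Of these neighbours, *Ikzf1* and *Myb*, *Runx3* and *Gfi1*, and *Runx2* and *Gata2* overlapped in their ranges over libraries. In aggressive AML *Runx2* (19.7) ranked above *Gata2* (9.42) and *Runx1* (8.52) below it, and the last pair overlapped, as did *Myb* and *Ikzf1*, *Runx3* and *Gfi1*, and *Gfi1* and *Runx2*. Among 11585 genes with a length, *Runx1* moved from percentile 70.2 to 50.8 and *Runx2* from 58.0 to 74.5, while *Ikzf2* moved from 10.6 to 0.466.

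**Figure D4:**
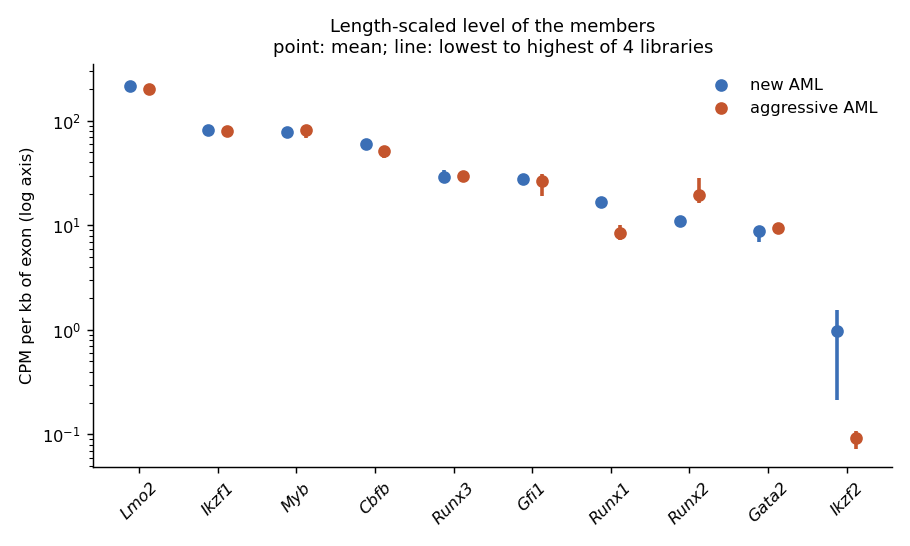
Level per kb of exon (log axis) of the 10 members in new (blue) and aggressive (red) AML; points are means and lines run from the lowest to the highest of 4 libraries. The members span from 217 (*Lmo2*) to 0.967 (*Ikzf2*) CPM per kb in new AML. The mean of *Runx1* lies above that of *Runx2* in new AML, and below those of *Runx2* and *Gata2* in aggressive AML.

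Genes around the called members were read beside them. Within 1000000 bases of the start of *Runx1*, 11 tested genes had a median log2 fold change of -0.17, with 3 lower and 0 higher. Over all tested genes 10.2% were lower, and the median over 378 other tested genes of chromosome 16 was 0.02. The 3 lower genes had means of 3.63, 6.03 and 14.0 CPM in new AML. The 5 around *Runx2* had a median of -0.17 with 0 called by edgeR, DESeq2, limma or voom and 0 at an unadjusted p under 0.05, and 0 tested genes lay within that distance of *Ikzf2*. Genes that overlap a member on the other strand could share reads, since the strand setting of the counting is not given in the sources used here. Exons on the opposite strand covered 106 bases of *Runx1* exon (0.881%), 519 of *Runx2* (5.87%), 559 of *Myb* (6.26%), 144 of *Ikzf2* (1.24%) and 101 of *Gfi1* (3.17%). *Supt3*, which overlaps *Runx2* but shares 0 exon bases, had a log2 fold change of 0.22 (adjusted p = 0.256). No pair among the 45 pairs of members shared a stretch of 50 exon bases.

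The genes most like *Runx2* in pattern, by the root mean square difference of centred log2(CPM + 1) over the 8 libraries, were *Rnf125*, a ubiquitin ligase (0.124), *Jmjd1c*, a histone demethylase family member (0.130), and *Mef2c*, a transcription factor of myeloid and lymphoid progenitors (0.138). *Mef2c* was 318 ± 18.3 CPM in new and 490.4 ± 98.2 CPM in aggressive AML. For *Ikzf2* they were *Kcng2*, a potassium channel subunit (0.529), *Chd3* (0.617) and *Epha7*, an ephrin receptor (0.618).

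Partners, paralogs and textbook targets were taken from 11 lists, in which 102 genes were tested. Of these 7 were higher and 16 lower, 22.5% called beside 18.4% of all tested genes, and their median log2 fold change was -0.06. The count was 15 without new replicate 2. Of 8 tested paralogs, *Lmo1*, a LIM adaptor gene, was the one called, at 16.0 ± 1.70 and 9.07 ± 1.14 CPM (log2 fold change -0.82, adjusted p = 0.00178). The median of this list was -0.04.

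Of 15 tested Runx cofactors, 1 was higher and 5 were lower, with a median of -0.10. *Tle3*, a Groucho corepressor, fell from 136 ± 12.6 to 96.0 ± 4.07 CPM (-0.50 on the log2 scale, adjusted p = 0.000659). *Kat6a*, a histone acetyltransferase that binds RUNX1, fell from 150.3 ± 11.6 to 110.3 ± 12.3 CPM (-0.45, 0.00326). The nuclear corepressor *Ncor1* was lower (-0.24, 0.0286), and *Prmt1*, an arginine methyltransferase, was higher (0.30, 0.0397). Both calls were fragile: that of *Prmt1* was lost without new replicates 1, 2 or 4 or aggressive replicates 1, 2 or 3 (adjusted p 0.0665 to 0.120). That of *Ncor1* was lost without new replicates 1, 2 or 4 or aggressive replicates 2 or 4 (0.0628 to 0.0971). *Tle2*, also among the lower cofactors, was at 7.21 and 3.61 CPM and is named after its values were seen. *Cbfa2t3*, an ETO family corepressor, was at 173 ± 16.3 and 118 ± 39.9 CPM (-0.54, adjusted p = 0.0584) and is likewise named after its values were seen.

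Of 15 tested Ikaros and NuRD partners, 1 was called. *Chd3*, an ATPase of the NuRD remodelling complex, was at 61.3 ± 12.3 CPM in new and 9.90 ± 1.65 CPM in aggressive AML (log2 fold change -2.63, SE 0.16, adjusted p = 7.49e-08). The other 14 were not called, among them its paralog *Chd4* (-0.12, adjusted p = 0.351), and the list's median was -0.02. Of 12 tested Gfi1 corepressors, 0 were called with edgeR or limma, 1 with DESeq2, and 4 had an unadjusted p under 0.05. The most abundant genes of this list were *Ehmt2* (-0.15, adjusted p = 0.150) and *Gse1* (-0.16, 0.276), and its median was -0.04. Of 6 Myb coactivators, *Taf12*, a TFIID subunit, was lower (-0.31, 0.0475), a call lost without any library except aggressive replicate 2 (0.0675 to 0.0968). The median of the coactivators was -0.10.

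Of 11 tested partners of LMO2 and GATA2, none was higher and 2 were lower, with a median of 0.01. *Ssbp3*, which stabilises the LDB1 complex, fell from 51.6 ± 4.84 to 38.4 ± 4.21 CPM (-0.43, adjusted p = 0.0118), and *Zfpm1*, a GATA cofactor under 10 CPM in both groups, is the other lower gene and is named after its values were seen. *Tal1*, the helix-loop-helix partner of LMO2, did not pass the filter, with 34, 8, 33 and 26 counts in new and 1, 1, 1 and 4 in aggressive AML. In the fit with no filter its log2 fold change was -3.63 (adjusted p = 0.000504). *Gata1* had 32, 3, 36 and 11 and then 7, 1, 2 and 7 counts (-2.10, 0.0387 with no filter). Erythroid markers were read beside these low counts. Of 8 tested, 3 were lower and 5 did not pass, and all 8 had a log2 fold change below 0. *Car2* fell from 14.8 ± 6.95 to 1.92 ± 0.803 CPM (-2.94, adjusted p = 0.000114), a call that held under all 16 alternatives. The call of *Hba-a1* was lost under 10 of 16 alternatives. The summed level of the erythroid markers was 32.2 to 116 CPM in new and 10.8 to 55.4 CPM in aggressive AML. Their part in the *Tal1* and *Gata1* values was not tested.

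Targets of the RUNX proteins moved both ways. Of 10 tested, 2 were higher and 4 lower, and the median was -0.15, or -0.04 without aggressive replicate 3. *Csf1r*, the receptor of macrophage colony-stimulating factor, fell from 166 ± 28.4 to 51.2 ± 6.41 CPM (-1.70, adjusted p = 3.76e-07), and *Itgal* (-0.39, 0.00106), *Csf2rb* (-0.28, 0.0156) and *Spi1* (-0.25, 0.0159) were lower. The calls of *Csf2rb* and *Spi1* were lost without new replicate 2 (0.0684 and 0.0530). The granule proteases *Ctsg* (0.51, 0.000636) and *Elane* (0.52, 0.0205) were higher, the call of *Elane* being lost with DESeq2 (0.0540) and without new replicates 1 or 2 or aggressive replicate 1 (0.0566 to 0.0718).

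Of 11 Myb targets, 3 were higher and 0 lower, with a median of 0.21, and 5 had a log2 fold change below 0. *Kit*, the stem cell factor receptor, rose from 105 ± 18.3 to 165 ± 17.5 CPM (0.65, adjusted p = 0.00140), with *Hmgb3* (0.63, 0.00516) and *Elane*. *Myc*, named after its values were seen, was among the 5 below 0 (-0.62, adjusted p = 0.0936). Of 13 Gfi1 targets, 2 were higher and 3 lower, with a median of 0.12. *Meis1*, a homeobox gene of MLL leukemia, rose from 100.4 ± 3.63 to 138 ± 27.9 CPM (0.45, 0.0117). *Irf8*, a factor of monocytes and dendritic cells, fell from 626 ± 33.2 to 432 ± 54.1 CPM (-0.54, 0.000657), with *Csf1r* and *Spi1*. *Id1* (0.69, 0.0251) was the other higher gene, a call lost without new replicates 1, 2 or 4 or aggressive replicates 1 or 2 (0.0531 to 0.0811). Of 5 tested Ikaros targets, the one called was *Rag1*, named after its values were seen, with 13 to 32 counts per new and 0 to 2 per aggressive library, at least 6.48-fold lower. The median of the Ikaros targets was -0.18. Of 8 tested Gata2 and Lmo2 targets, *Kit* was higher and *Spi1* lower, with a median of -0.17.

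**Figure D5:**
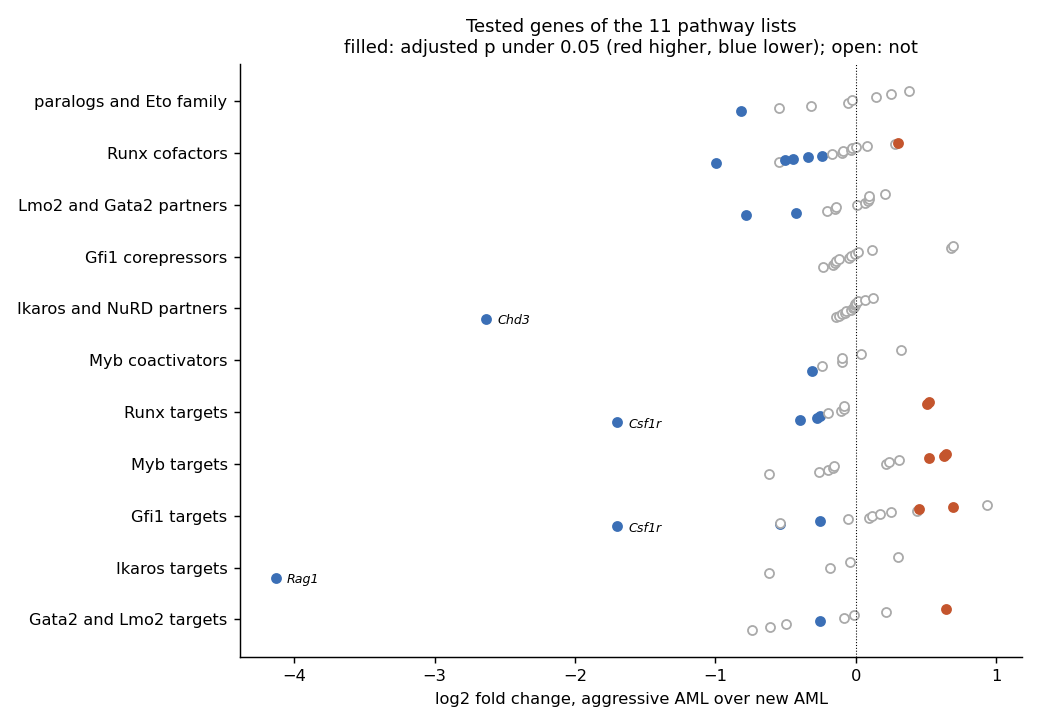
Log2 fold change (horizontal axis) of each tested gene in the 11 lists; filled red points were higher and filled blue points lower at an adjusted p under 0.05, and open points did not pass. *Chd3* (-2.63) stands apart from the other NuRD genes, and *Csf1r* (-1.70) appears in the lists of Runx and Gfi1 targets.

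Markers of mature myeloid cells were read beside *Runx1*, *Csf1r* and *Irf8*. Of 12 neutrophil markers 8 were lower and 0 higher, and their summed level was 358 to 539 CPM in new and 197 to 249 CPM in aggressive AML. *Ltf*, the lactoferrin gene, was the named example with the greatest change (-3.07, adjusted p = 7.58e-07). Of 3 tested macrophage markers *Adgre1*, the F4/80 gene, was lower (-0.83, 0.00245), with a summed level of 63.3 to 110.0 and 37.3 to 56.9 CPM. Mast cell and basophil markers summed to 54.0 to 66.5 and 107 to 118 CPM, and 1 of the 3 tested, the basophil protease *Mcpt8*, was higher (1.48, 2.02e-06). *Mcpt8* alone went from a mean of 27.9 to 77.8 CPM and made up most of the rise in the sum. *Cpa3* (0.21, adjusted p = 0.406) and *Ms4a2* (-0.50, 0.262), named after their values were seen, were not called. The 2 tested megakaryocyte markers summed to 5.46 to 9.92 and 3.85 to 10.4 CPM, with 0 called by edgeR or limma, 1 by DESeq2 and 2 at an unadjusted p under 0.05. The part of these cells in the values of the members was not tested.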

How the data were processed

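RNA was measured in 8 libraries, 4 per group by the sample labels. The authors purified polyadenylated RNA, aligned read pairs to mm10 with HISAT2 and counted reads per gene with Rsubread. The table deposited by the authors is named for CPM but holds raw read counts (whole numbers whose totals differ between libraries), and these counts were tested directly. The annotation and strand setting of the counting are not given in the sources used here. A gene name is repeated in 1 row, and 0 rows lack one.

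Genes at 1 CPM or more in at least 4 of 8 libraries were tested, which left out 329 rows. The quasi-likelihood test of edgeR 4.0.16 (R 4.3.3) was fitted over all 12494 genes with TMM scaling and the group alone, two-sided, with Benjamini-Hochberg adjustment at 0.05, and was tested on simulated data. Fold changes are aggressive over new AML. The common biological coefficient of variation was 0.118. For a group without a library above 3 counts, folds are bounds against 3 counts per library. Such bounds and floors cover counting error only. Alternatives were DESeq2 1.42.0, limma 3.58.1 on log2(CPM + 1) and with voom, other scalings, no filter, a replicate block and leaving out each library. Whether same-numbered libraries deviate together was checked by correlation, which was -0.06 to 0.17 over the 4 numbers, so the numbers were not taken as pairs.

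Exon lengths and coordinates came from GENCODE on GRCm38, the build of mm10, and promoters from RefSeq. The members and gene lists were chosen with earlier results of these data known. All members were named, and of each list up to 4 called genes per direction with the largest change and at least 10 CPM in the higher group, or the 2 most abundant where none passed. The 3 genes closest in pattern to *Runx2* and *Ikzf2* were also named. A few genes picked by this rule or held in a list are not reported here.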

Additional observations from a re-analysis of the deposited data

Results flagged for a closer look

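Of 34 groups of 4 values examined, 4 had 1 library far from the others of its group, and chance sets apart about 1 in 20 such groups. Aggressive AML replicate 3 stood apart in 3 of them. Its *Runx2* level was 248.4 CPM against 143.9 to 155.9 CPM in the others, and its *Myb* level was 616.5 CPM against 753.2 to 767.8 CPM. Its ratio of *Cbfb* to the summed *Runx* level was 0.663 against 0.962 to 1.01. That sum includes *Runx2*, so the flag of the ratio is not independent of the flag of *Runx2*. In new AML replicate 3, *Gata2* was at 37.2 CPM against 50.4 to 52.7 CPM. What sets these libraries apart was not tested.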

How the results depend on the processing

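The calls of *Runx1* (log2 fold change -1.07 to -0.91), *Runx2* (0.61 to 0.91) and *Ikzf2* (-3.70 to -2.29) held under all 16 alternatives, with adjusted p-values of at most 7.98e-05, 0.00483 and 0.0168, and those of *Myb* and *Lmo2* kept their direction without passing. *Cbfb* passed with DESeq2 (-0.23), with the replicate block (-0.24, edgeR adjusted p = 0.0483) and without aggressive replicate 4, its values with 1 library left out being -0.27 to -0.16 and its adjusted p 0.0438 to 0.131 over the alternatives. Genes that missed the threshold changed sign: with 1 library left out the range was -0.0068 to 0.13 for *Runx3*, -0.13 to 0.082 for *Gfi1*, -0.039 to 0.0061 for *Ikzf1*, -0.021 to 0.13 for *Gata2* and -0.096 to 0.061 for *Lgals1*. With upper-quartile factors *Ikzf1* was at 0.0015. The cause was not tested.

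Genes called numbered 1534 to 2381 with 1 library left out, those higher 650 to 1077 and list genes called 15 to 27, against 2296, 1018 and 23. The replicate block called 2367. The summed *Runx* level, aggressive minus new, was -3.96 CPM per kb with the longest transcript and -1.42 to 3.44 with 1 library left out, and the *Runx3* share -0.91 to 2.49 points (these omissions were chosen after seeing the data). With the longest transcript the *Runx1* share differed by -18.5 points and the ratio of *Runx1* to *Runx2* by -1.59. The 7 to 11 counts of *Ikzf2* per aggressive library limit how well its fold is known.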
